A study of Mus musculus with 12 samples.

Results

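The miR-128 genes of the mouse are Mir128-1, which lies inside the gene R3hdm1, and Mir128-2, which lies inside the gene Arpp21. Each of these 4 genes had exactly 1 probe set of its own among the 35556 probe sets of the expression table, so 4 probe sets are described. They were chosen by an earlier result on these animals, the higher Mir128-1 value after prenatal exposure. Mir128-2 was included as the other miR-128 gene, on another chromosome, and R3hdm1 and Arpp21 as the genes around the 2 microRNA genes. C57BL/6N mice were sampled at 12 weeks of age, and total RNA of the medial prefrontal cortex was read on 1 Affymetrix Mouse Gene 1.1 ST array per animal. The 6 polyIC animals were born to C57BL/6 dams that received the viral mimetic poly(I:C), a double-stranded RNA made in the laboratory, intravenously at 5 mg/kg on gestation day 17. The 6 control animals were born to dams given saline in the same way. All animals had gone through behavioural testing before the tissue was taken. The labels name neither litter nor sex, so the p-values below measure the spread between animals that may include littermates.

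MicroRNAs are short RNAs that guide Argonaute proteins to messenger RNAs and lower their output. miR-128 is among the most abundant microRNAs of the adult brain, is made mainly in neurons, and is known for restraining neuronal excitability. An intronic microRNA is cut out of its host's primary transcript, so microRNA and host can share a promoter, while their mature products differ in processing and stability. R3hdm1 encodes a protein with an R3H domain, a nucleic acid binding fold. Arpp21 encodes a related protein, known both as a cAMP-regulated phosphoprotein of striatal neurons and, in a longer form, as an RNA-binding protein that acts against miR-128 on shared messenger RNAs.

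The hairpins are shown because they define what the microRNA probe sets are named for and how far the 2 loci can be told apart. The sequences are those of RefSeq (GRCm38.p6), which gives Mir128-1 at chr1:128202361-128202430 on the plus strand and Mir128-2 at chr9:112118636-112118711 on the minus strand. In the hairpins the capitals mark the arm that becomes miR-128-3p, and in the mature sequences they mark the seed, bases 2 to 8.
Mir128-1 hairpin: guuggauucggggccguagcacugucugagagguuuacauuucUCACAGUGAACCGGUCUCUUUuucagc
Mir128-2 hairpin: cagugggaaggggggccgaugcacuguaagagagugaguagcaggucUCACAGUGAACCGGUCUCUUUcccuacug
miR-128-3p, from both loci: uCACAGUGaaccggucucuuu
miR-128-1-5p: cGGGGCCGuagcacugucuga
miR-128-2-5p: gGGGGCCGaugcacuguaagaga
The 3p arm was identical at all 21 positions, and no other of the 1679 mature mouse microRNA names in the RefSeq table carried its seed CACAGUG. The 5p arms shared the seed GGGGCCG and matched at 16 of 23 aligned positions. The whole hairpins, 70 and 76 bases long, matched at 55 of 77 aligned positions (71.4%). Each hairpin lies on the strand of its host, with 73.7% of the R3hdm1 span and 68.7% of the Arpp21 span before it. The sequences of the array's probes were not used here. The labelling text describes an oligo(dT) primer and names either a 3′ kit or a whole-transcript kit, and whether the microRNA probe sets read the hairpin, the mature RNA or unspliced host transcript was not tested.

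At the first locus, both the microRNA gene and its host had higher values in all 6 polyIC animals than in any control. Mir128-1 (probe set 10349510) read 6.14, 6.18, 6.12, 6.51, 6.23 and 6.25 on the log2 scale in controls 1 to 6, and 6.98, 6.69, 6.81, 6.95, 6.66 and 6.94 in polyIC animals 1 to 6. Control 4 stood above the other 5 controls, and it still lay below the lowest polyIC animal. The group means were 6.24 ± 0.14 and 6.84 ± 0.14 (SD, n = 6 each), a difference of 0.60 ± 0.07 (moderated standard error, SE) or 1.52-fold. R3hdm1 (probe set 10349480) read 9.61, 9.58, 9.64, 9.71, 9.68 and 9.72 in controls, and 9.89, 9.78, 9.86, 9.91, 9.85 and 9.79 after polyIC. Its means were 9.66 ± 0.06 and 9.85 ± 0.05, a difference of 0.19 ± 0.04 (SE) or 1.14-fold, and a gap of 0.06 separated the highest control from the lowest polyIC animal.

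At the second locus, the host separated the groups and the microRNA gene did not. Mir128-2 (probe set 10597352) read 4.97, 4.95, 5.13, 5.18, 4.94 and 5.16 in controls, and 5.40, 5.18, 5.18, 4.99, 5.16 and 5.16 after polyIC. The groups overlapped, with polyIC animal 1 above every other animal and polyIC animal 4 among the low controls. The means were 5.05 ± 0.11 and 5.18 ± 0.13 (SD, n = 6), a difference of 0.12 ± 0.06 (SE) or 1.09-fold. Arpp21 (probe set 10597323) read 9.50, 9.47, 9.52, 9.56, 9.59 and 9.57 in controls, and 9.72, 9.66, 9.68, 9.67, 9.64 and 9.61 after polyIC. Its means were 9.54 ± 0.05 and 9.66 ± 0.04, a difference of 0.12 ± 0.03 (SE) or 1.09-fold, and the groups were separated by only 0.02. Whether the differences of a microRNA gene and its host were alike or unlike was not tested at either locus.

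**Figure D1:**
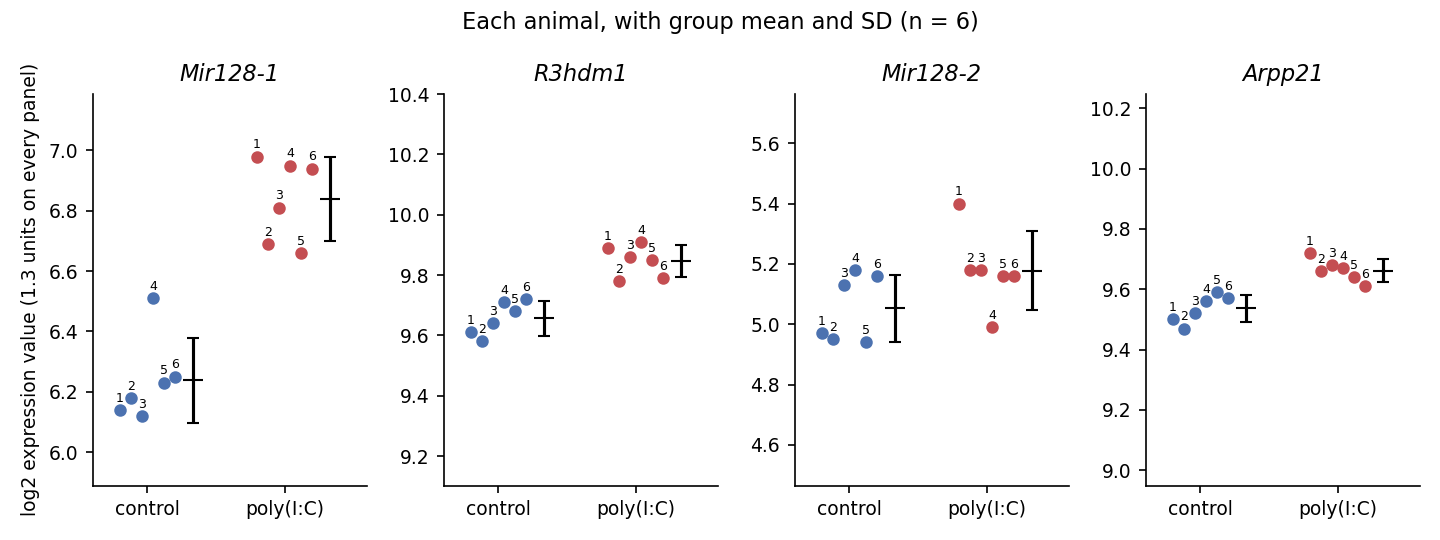
Log2 expression of Mir128-1, R3hdm1, Mir128-2 and Arpp21 in each animal (numbered points; blue control, red polyIC), with the group mean and SD (n = 6) in black and 1.3 log2 units on every vertical axis. Mir128-1 shows the widest separation (6.12 to 6.51 against 6.66 to 6.98), the hosts narrow but complete separation, and Mir128-2 overlapping groups.

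These differences are a description, since the genes were proposed with this contrast in view. In the limma fit to all 23099 probe sets with an annotated gene, 2.83% passed an adjusted p under 0.05 (2.02% higher and 0.805% lower after exposure). The split of 467 higher and 186 lower turned to 239 and 285 after quantile normalization and to 298 and 232 after median centring. Mir128-1, R3hdm1 and Arpp21 were among those that passed, all higher. The groups did not overlap in 2.37% of probe sets (1.73% higher and 0.636% lower), among them the same 3 members. Mir128-1 and R3hdm1 passed in each of the 21 alternative fits, and Mir128-2 in none of the 20 that kept it. These fits reuse the contrast in view when the genes were proposed, so they are no separate support. Arpp21 was near the threshold and did not pass without control 1, 2, 3 or 6, without polyIC 1, 2, 3 or 4, after quantile normalization, after median centring, with the replicate number as a block or over all rows. The differences themselves kept their sign in all the leave-one-out, scaling and control 5 and 6 fits, at 0.57 to 0.66 for Mir128-1, 0.18 to 0.21 for R3hdm1, 0.08 to 0.16 for Mir128-2 and 0.11 to 0.15 for Arpp21. Levels of different probe sets are not comparable, so the shares that follow place each probe set on the array and are no order of expression. R3hdm1 and Arpp21 were brighter than 96.9% and 96.2% of probe sets, Mir128-1 than 61.1% and Mir128-2 than 39.3%.

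Whether a microRNA probe set follows its host was asked from animal to animal within the groups, on each animal's deviation from its own group mean, which takes out the contrast used to pick the genes. Mir128-1 and R3hdm1 deviated to the same side in 8 of 12 animals, with Pearson r = 0.55 (n = 12; exact permutation test within groups, two-sided, p = 0.081, adjusted over both loci p = 0.15) and Spearman rho = 0.62 (exact p = 0.041). The relation did not pass after adjustment. Control 4 had the highest Mir128-1 deviation (0.27) with a high R3hdm1 deviation (0.06), and polyIC 2 was low for both (-0.15 and -0.07). PolyIC 6 went the other way, with Mir128-1 0.10 above and R3hdm1 0.06 below the group mean, and r was 0.72 without it (exact p = 0.014) and 0.63 without polyIC 5 (exact p = 0.047). Without control 4 r was 0.46, and without polyIC 2 it was 0.47 (exact permutation p = 0.18 for each). Within controls r was 0.66 and rho 0.71 (n = 6; exact p = 0.13 and 0.14), and within polyIC animals r was 0.44 and rho 0.66 (n = 6; exact p = 0.34 and 0.18). Without control 2 and polyIC 4, whose R3hdm1 values lay farthest from the median, r was 0.52 and rho 0.58 (n = 10; exact p of r = 0.15).

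Mir128-2 and Arpp21 also deviated to the same side in 8 of 12 animals, with r = 0.45 (n = 12; exact permutation p = 0.15, adjusted p = 0.15) and rho = 0.44 (exact p = 0.18). This value rested on few animals: without control 2 and polyIC 1, whose Arpp21 values were the most extreme, r was 0.02 (n = 10; exact p = 0.96). Leaving out polyIC 1 alone gave 0.24, and leaving out control 5, in which Arpp21 was high and Mir128-2 low, gave 0.69 (exact p = 0.53 and 0.028). After median centring r was 0.25 (exact p = 0.48). The 6 controls alone gave r = 0.39 and rho = 0.09 (exact p = 0.44 and 0.92), and the 6 polyIC animals r = 0.54 and rho = 0.54 (exact p = 0.25 and 0.30).

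The hosts followed each other more closely than either was followed by its microRNA probe set in these values, although the differences between the correlations were not tested. R3hdm1 and Arpp21, which lie on different chromosomes, deviated to the same side in 11 of 12 animals, with r = 0.79 (n = 12; exact permutation p = 0.0062, adjusted over 6 pairs p = 0.037) and rho = 0.78 (exact p = 0.0075, adjusted p = 0.045). The other cross pairs, like this one computed after the values had been seen, gave r = 0.31 for Mir128-1 with Mir128-2, 0.37 for Mir128-1 with Arpp21 and 0.32 for Mir128-2 with R3hdm1 (n = 12; exact p = 0.36, 0.27 and 0.33), and none passed. Without the 2 animals farthest from the median of the second-named gene of each pair, these were 0.12, 0.21 and 0.61 (n = 10; exact p = 0.74, 0.60 and 0.081). Mir128-2 with R3hdm1 gave 0.67 within controls and 0.00 within polyIC animals (n = 6; exact p = 0.14 and 0.99). The host pair had r = 0.92 and rho = 0.83 within controls (n = 6; exact p = 0.015 and 0.058) and r = 0.61 and rho = 0.66 within polyIC animals (n = 6; exact p = 0.19 and 0.18). Leaving out any 1 animal gave r between 0.71 and 0.87 (exact p of 0.024 or less), and leaving out control 2 and polyIC 1 together gave r = 0.67 (n = 10; exact p = 0.050).

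**Figure D2:**
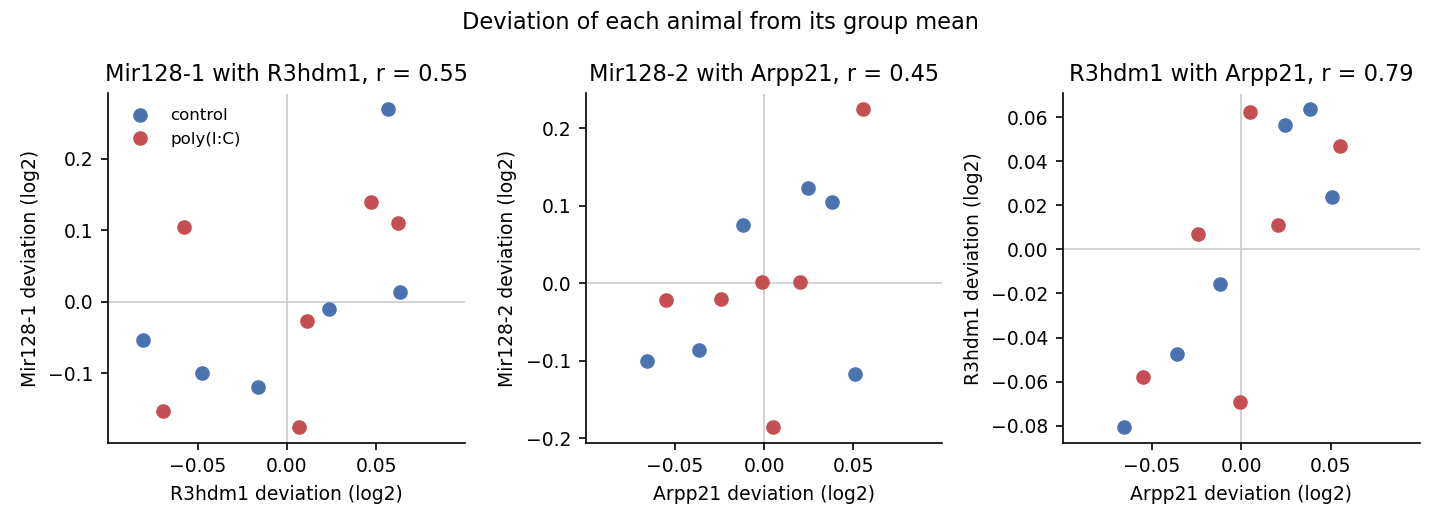
Deviation of each animal's log2 value from its group mean for Mir128-1 against R3hdm1, Mir128-2 against Arpp21 and R3hdm1 against Arpp21 (12 animals; blue control, red polyIC). The host pair lies closest to a line (r = 0.79), and the microRNA pairs scatter more (r = 0.55 and 0.45).

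Against the rest of the array, R3hdm1 was not the best match of Mir128-1. Of the 23098 other probe sets, 995 (4.31%) had a group-centred r with Mir128-1 at least as high as that of R3hdm1, and the median r was -0.07. For Mir128-2, 2423 (10.5%) were at least as high as Arpp21. For R3hdm1, only 95 probe sets (0.411%) were at least as high as Arpp21. All these correlations share the same 12 arrays and any array-wide variation, and are given as a description.

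The probe sets most like Mir128-1 over the 12 animals were Fryl, a homologue of the furry cytoskeletal regulator (r = 0.95), the predicted genes Gm20939 (0.95) and Gm7265 (0.94), Malat1, a nuclear long noncoding RNA (0.93), and Kansl1, a subunit of a histone acetyltransferase complex (0.93). Their own log2 differences between groups were 0.16 ± 0.04 for Fryl, 0.21 ± 0.04 for Gm20939, 0.26 ± 0.09 for Gm7265, 0.43 ± 0.11 for Malat1 and 0.43 ± 0.11 for Kansl1 (SE). Fryl, Gm20939 and Malat1 passed the adjusted threshold (limma adjusted p = 0.035, 0.016 and 0.049), and Gm7265 and Kansl1 did not (0.14 and 0.054). The Fryl and Malat1 calls were lost without control 1, 2, 3 or 6 or polyIC 1, 3, 4 or 6, and that of Malat1 without control 5 too. Both were also lost without controls 5 and 6 together, after quantile normalization and over all rows, that of Fryl after median centring and with the replicate block, and that of Malat1 with trended, robust moderation. Kansl1 passed without control 4, polyIC 2 or polyIC 5, with array weights, with the replicate block and among the brighter probe sets, and Gm7265 without control 4. Control 4, high for Mir128-1, was also the highest control for Gm7265 (5.21 against 4.72 to 4.90 in the other controls).

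The probe sets most like Mir128-2 were Dao, which encodes D-amino acid oxidase (r = 0.96), the microRNA gene Mir100 (0.94), the secreted protein gene Bpifb1 (0.93), the olfactory receptor gene Olfr532 (0.93) and the kinesin gene Kif6 (0.92). Of these, Mir100, Bpifb1 and Olfr532 had group means of 3.31 to 3.55, under the 25th percentile of every array (3.92 to 3.96), where values lie near the floor. None of the 5 passed in limma, with differences from -0.07 for Bpifb1 to 0.07 for Olfr532 (adjusted p = 0.32 and 0.39). For R3hdm1 the closest were Sbno1, a homologue of strawberry notch (r = 0.93), and 2 probe sets of Hnrnpa3, an RNA-binding protein of the spliceosome (0.91 and 0.90). For Arpp21 they were the deubiquitinase gene Usp28 (0.91), the L-amino acid oxidase gene Lao1 (0.91) and Kifap3, which encodes a kinesin-associated protein (0.91). Usp28 was the only one of these passing in limma, with a difference of 0.19 ± 0.03 (adjusted p = 0.013).

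Other intronic microRNAs give a scale for these values. On this array 88 microRNA genes had a probe set of their own and lay inside a host gene on the same strand that also had one, and some shared a host (70 hosts). Each host was read by its brightest probe set, and whether that probe set lies at the microRNA's locus was not checked. Over the 88 pairs the group-centred r ran from -0.69 to 0.77 with a median of -0.01, and 43 pairs (48.9%) were above 0. Mir128-1 with R3hdm1 ranked 8 and Mir128-2 with Arpp21 ranked 12 among them. After quantile normalization the ranks were 12 and 10, and among the 29 pairs in which neither probe set fell below the 25th percentile they were 4 and 6. Between groups the median difference of the 88 microRNA probe sets was 0.01 and that of the hosts 0.02, and the difference of Mir128-1, the contrast it was chosen by, ranked 1 among these 88 and 2 among all 306 microRNA probe sets. Of the 306, 22 passed in limma as higher and 1 as lower, beside 2.02% and 0.805% of all probe sets. In the 88 pairs the microRNA passed in 3, Mir128-1 among them, and the host in 11, beside 2.83% of all probe sets. In all 3 the host passed too. The 11 are pairs and not separate hosts, since Rian, Spaca6 and Aopep each enter more than once. The chosen members R3hdm1 and Arpp21 are also among the 11, so this count is no fair match for the share of all probe sets.

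**Figure D3:**
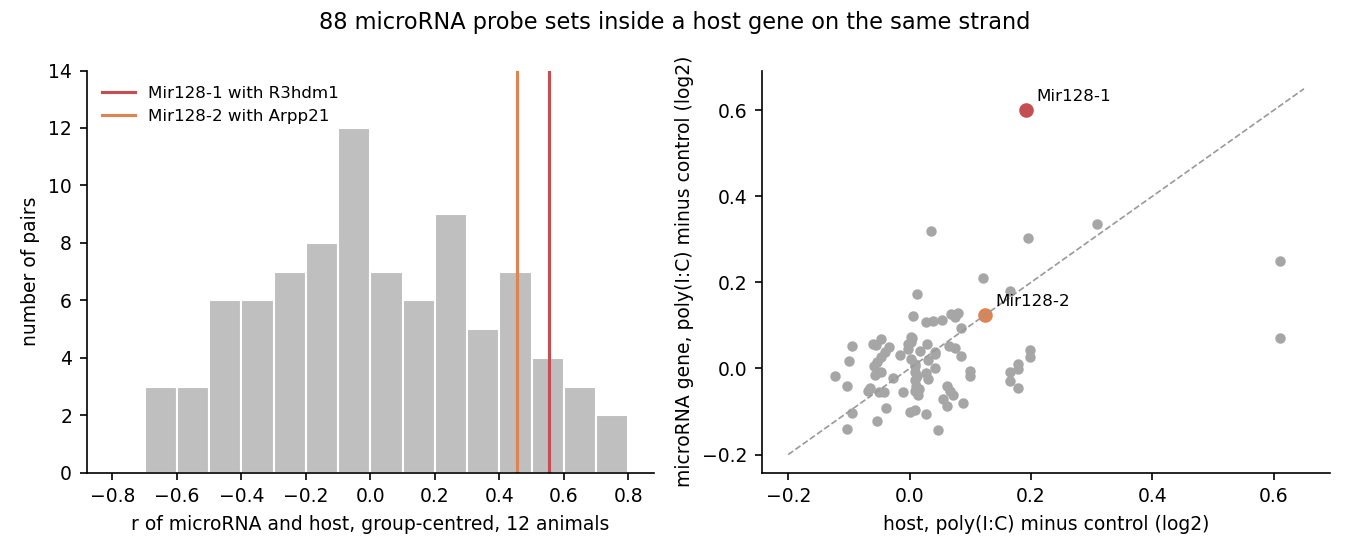
Left, number of the 88 intronic microRNA and host pairs by their group-centred Pearson r over 12 animals, with Mir128-1 and R3hdm1 (red) and Mir128-2 and Arpp21 (orange) marked. Right, log2 difference (polyIC minus control) of each microRNA probe set against that of its host, with the dashed line marking equal differences: Mir128-2 lies on that line (0.12 for both) and Mir128-1 above it (0.60 against 0.19).

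Genes of the pathway were then counted from lists of which each gene was read by its brightest single-gene probe set. Of 22 genes reported as miR-128 targets, 19 were measured, and 1, Wee1, a kinase that holds back entry into mitosis, rose (0.18 ± 0.04, limma adjusted p = 0.037). The Wee1 call was lost without control 1, 2, 3 or 6 or polyIC 1, 3 or 4, after either rescaling, with the replicate block and over all rows (adjusted p up to 0.088). The other 18 did not pass, among them the Polycomb gene Bmi1 (0.07 ± 0.04), the chromatin gene Phf6 (0.05 ± 0.03), the lymphangiogenic factor gene Vegfc (0.07 ± 0.04), Snap25 of the synaptic release machinery (0.00 ± 0.03), the migration genes Dcx (0.00 ± 0.05) and Reln (0.04 ± 0.04) and the decay factor Upf1 (-0.01 ± 0.03). The median difference of the targets was 0.01, with 14 of 19 means higher, beside a median of 0.00 and 52% higher over all probe sets. An unadjusted p under 0.05 was found for 1 of the 19, Wee1, beside 19.1% of all probe sets. Over all probe sets, 2.02% rose past the adjusted threshold. After quantile normalization 10 of the 19 were higher, and the differences of Snap25 and Dcx turned negative after either rescaling. The median over all probe sets moved down as well, to -0.0098 after quantile normalization and -0.0073 after median centring.

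Of 16 microRNA processing and silencing genes none passed in limma, 5 had an unadjusted p under 0.05 beside that 19.1% of all probe sets, and the median difference was 0.06, or 0.03 after quantile normalization. The lowest p-values were those of the RNA helicase genes Ddx17 (0.13 ± 0.04) and Ddx5 (0.11 ± 0.04), which work with the microprocessor, the Argonaute gene Ago1 (0.07 ± 0.03) and Drosha, the nuclease that frees the hairpin (0.07 ± 0.03). Dicer1, the enzyme that cuts the hairpin, differed by 0.08 ± 0.04. After quantile normalization Ago1 and Drosha differed by 0.04 each and Dicer1 by 0.05. Of the 4 R3H domain relatives of the hosts, none passed and 1 of 4 had an unadjusted p under 0.05 (19.1% of all probe sets), R3hdm2 (0.10 ± 0.03, limma adjusted p = 0.074), whose groups did not overlap. R3hdm4 differed by -0.02 ± 0.03, R3hcc1 by -0.05 ± 0.04 and R3hcc1l by 0.06 ± 0.05.

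Neighbouring genes did not pass either. The nearest measured genes to R3hdm1 in RefSeq were Zranb3 (0.05 ± 0.03) and Rab3gap1 (0.07 ± 0.04) on one side and Ubxn4 (-0.02 ± 0.04) and Lct (0.06 ± 0.04) on the other, beside 0.19 for R3hdm1 and 0.60 for Mir128-1. Those nearest to Arpp21 were Stac (-0.12 ± 0.04) and Dclk3 (-0.03 ± 0.04), and Pdcd6ip (0.08 ± 0.03) and Clasp2 (0.00 ± 0.06, with its sign turned by either rescaling). None of the 8 passed in limma, and 2 of 8, Stac and Pdcd6ip, had an unadjusted p under 0.05, a share near the 19.1% of all probe sets. After quantile normalization Pdcd6ip and Rab3gap1 differed by 0.04 each.

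**Figure D4:**
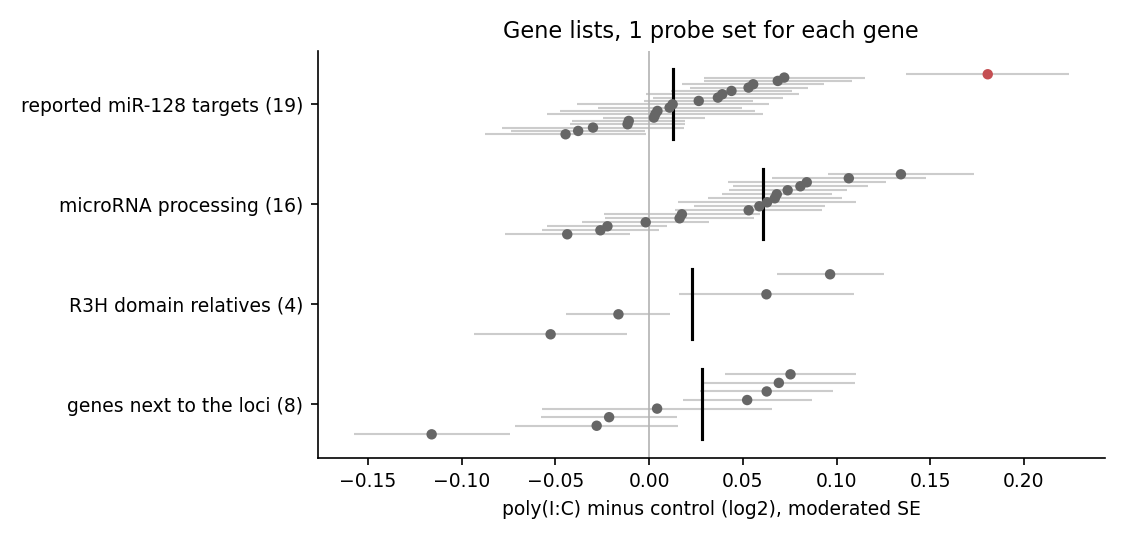
Log2 difference (polyIC minus control) with its moderated SE for each measured gene of 4 lists, 1 probe set a gene, with black bars at list medians and red for an adjusted p under 0.05. Wee1 (0.18) is the only red point, and the list medians of the deposited values run from 0.01 for reported targets to 0.06 for processing genes, which is 0.03 after quantile normalization.

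Array medians lay between 5.15 and 5.21, pairs of arrays correlated at 0.994 to 0.998, and all 11 measured pan-neuronal markers were brighter than 74.1% of probe sets. Some marker lists also differed between the groups, and in bulk tissue fewer cells of a type and less RNA per cell cannot be told apart. Over all probe sets, 0.805% fell and 2.02% rose past the adjusted threshold, the shares to set beside the calls below. Of 9 measured oligodendrocyte markers, 5 fell in limma (Mobp, Cnp, Cldn11, Myrf and Gjb1) and all 9 means were lower (list mean 7.32 to 7.68 in controls and 6.89 to 7.38 in polyIC animals). Of 12 measured striatal markers, 1, Ppp1r1b, fell and all 12 means were lower (6.23 to 6.84 and 6.18 to 6.34). Controls 5 and 6 had the highest striatal list means (6.84 and 6.69), with controls 1 to 4 at 6.23 to 6.45. The cause was not tested. Pan-neuronal markers had higher means in 10 of 11 (9.95 to 10.03 and 10.03 to 10.09), or 8 of 11 after quantile normalization, and none passed, with 2 of 11 at an unadjusted p under 0.05, near the 19.1% of all probe sets. Markers of excitatory cortical neurons had higher means in 5 of 9 (8.80 to 8.87 and 8.83 to 8.88), or 4 of 9 after quantile normalization, and 1, Bcl11b, fell. All 13 measured genes of a list known for detained introns were higher on average (7.43 to 7.64 and 7.65 to 7.86), and 5 of them rose (Pnisr, Luc7l3, Clk4, Nktr and Ogt). Astrocyte, microglia and endothelial markers had higher means in 4 of 8, 1 of 6 and 2 of 6, or 1 in each list after quantile normalization, and none passed in limma or had an unadjusted p under 0.05. Quantile normalization also moved the median difference over all probe sets, from 0.0030 to -0.0098. The dimmest marker measured, the striatal gene Isl1, was brighter than only 14.8% of probe sets. Its means of 3.88 in controls and 3.75 in polyIC animals lay under the 25th percentile of every array, near the floor. It is among the 12 striatal means that were lower.

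Within groups, none of 20 relations between the 4 genes and 5 of these lists passed after adjustment. The highest was Mir128-1 with the detained-intron list (r = 0.70, rho = 0.71, n = 12; exact permutation p = 0.012 and 0.013, adjusted p = 0.25), and r was 0.60 without control 3 and polyIC 1. Arpp21, R3hdm1 and Mir128-2 gave 0.60, 0.54 and 0.37 with that list (exact p = 0.057, 0.093 and 0.25). With oligodendrocyte markers r was -0.10 for Mir128-1, -0.26 for R3hdm1, 0.18 for Mir128-2 and -0.30 for Arpp21 (exact p = 0.78, 0.42, 0.62 and 0.35). Without control 2 and polyIC 4 these were 0.18, 0.28, -0.10 and -0.16, so 3 of 4 changed sign. Arpp21, itself a striatal phosphoprotein gene, gave 0.38 with striatal markers (rho = 0.18, exact p = 0.31) and -0.52 without controls 5 and 6, which had the highest striatal scores. The other members also moved down without these 2 animals. R3hdm1 went from 0.24 to -0.36, Mir128-1 from -0.18 to -0.47 and Mir128-2 from -0.18 to -0.22. The part of these markers in the group differences of the 4 genes was not tested.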

How the data were processed

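The authors deposited 1 table of log2 values, a unit read from their range. The submitters' processing notes list RMA and Partek 6.6, with no role or order. No label or header names a genome build or an annotation. Whether further scaling was applied is unknown, so 2 rescalings, quantile normalization and median centring, were tried. The number of arrays limits the precision.

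Gene names come from GEO's platform annotation, with symbols updated through gene identifiers to the RefSeq table of GRCm38.p6 (21185 of 21218 single-gene probe sets matched). The contrast polyIC minus control was fitted in limma 3.58.1 under R 4.3.3 (lmFit, eBayes; two-sided), with Benjamini-Hochberg adjustment over 23099 annotated probe sets. Correlations used values centred within groups and exact permutation over all 518400 within-group orders (720 within 1 group), run with numpy 2.4.6 and scipy 1.17.1 under Python 3.11.15. Plots used matplotlib 3.10.9 and hairpins were aligned with Biopython 1.88. Both tests were checked on simulated data. The limma simulation drew each probe set independently, so it does not cover variation that probe sets share across arrays.

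The members, lists and tests were chosen with earlier results of these data known. Named genes are the members, the 5 probe sets most like each microRNA gene and the 3 most like each host, the 2 nearest measured genes on each side of each locus, and, from each list, those called and up to 4 of lowest p; further list members were chosen after their values were seen. Alternatives comprised rescaling, brightness filters, array weights, the replicate block, all rows, trend and robust moderation, and leaving out animals.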

Additional observations from a re-analysis of the deposited data

Results flagged for a closer look

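In 108 groups of 6 values that were screened for a single far value, 8 had one beyond Dixon's 95% limit of 0.625, where chance gives about 1 in 20. Mir128-1 had such a value in controls (gap over range 0.658), with control 4 at 6.51 and the others at 6.12 to 6.25. Its close match Gm7265 had such a value for the same animal (0.637), at 5.21 against 4.72 to 4.90. The striatal marker score had such a value in polyIC animals (0.665), with polyIC 5 at 6.34 and the others at 6.18 to 6.23. Hnrnpa3 (0.656) was low in polyIC 2, at 8.77 against 8.91 to 8.98. Olfr532 (0.742) and Zranb3 (0.784) were high in polyIC 1, at 3.59 against 3.29 to 3.37 and 5.79 against 5.71 to 5.73. Clasp2 was low in control 3 (0.725), at 8.65 against 8.72 to 8.75, and in polyIC 4 (0.738), at 8.38 against 8.74 to 8.87.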

How the results depend on the processing

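The 653 calls over all probe sets were 467 higher and 186 lower, against 239 and 285 after quantile normalization and 298 and 232 after median centring. They numbered 414 over all rows, where more probe sets are adjusted for. Leaving out 1 animal gave 230 to 818 calls, with 331, 230 and 281 when controls 1, 2 and 3 were dropped and 236, 396, 302 and 392 when polyIC animals 1, 3, 4 and 6 were. Animals that share a replicate number showed little likeness (correlations of deviations from -0.09 to 0.11), and a small effect of shared handling was not tested. With the replicate block 536 probe sets passed. In that setting r was 0.26 for Mir128-1 with R3hdm1, 0.53 for Mir128-2 with Arpp21 and 0.86 for the hosts (exact permutation p = 0.65, 0.26 and 0.0069, n = 6 differences).

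For Mir128-1 with R3hdm1, Spearman's rho of 0.62 had an exact p of 0.041, and the pooled r was 0.91, a value that holds the group difference by which the gene was chosen and is no support. Leaving out 1 animal gave r from 0.46 to 0.72 (exact p = 0.18 to 0.014). For Mir128-2 with Arpp21 the pooled r, which holds the group difference too, was 0.62, r was 0.25 after median centring (exact p = 0.48), r was 0.67 without controls 5 and 6, chosen after seeing the data (exact p = 0.047), and leave-one-out values ran from 0.24 to 0.69. The host pair fell to 0.67 without control 2 and polyIC 1 (exact p = 0.050). The causes were not tested.

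Of the 47 genes in the pathway lists, 0 passed in limma after quantile normalization or median centring, against 1 as deposited, and leaving out 1 animal gave 0 to 2. The median r of the intronic pairs was 0.011 after quantile normalization and 0.0033 among bright pairs, against -0.01; the cause was not tested. A mean over several host probe sets was not run, since R3hdm1 and Arpp21 have 1 each.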
